A study of Mus musculus with 6 samples.

Results

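The 9 genes of the AMPA and kainate receptor subunits, Gria1 to Gria4 and Grik1 to Grik5, were followed by gene symbol through the RNA-seq counts of mouse forebrain, where they were 9 of 23282 entries. Male C57BL/6J mice, 8 to 10 weeks old, stood for 1 h on a small platform surrounded by water (water avoidance stress, WAS) or, as controls, on that platform in a dry container. They were killed straight afterwards, and 1 forebrain hemisphere without olfactory bulb and cerebellum was taken per mouse, with 3 mice per group. The groups differed, by their labels, only in the water. RNA was read by QuantSeq, which sequences the end of polyadenylated transcripts. It came from whole tissue, so that all cell types are summed in each library. All 9 genes passed the filter on low counts and were tested, among 15239 genes in all.

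AMPA and kainate receptors are ion channels opened by glutamate, each built from 4 subunits of its own family. AMPA receptors carry most of the fast excitatory current between neurons, and their number at the synapse is adjusted during plasticity. Kainate receptors act on both sides of the synapse, where they tune transmitter release and excitability. Grik1, Grik2 and Grik3 encode kainate subunits that can form channels by themselves, whereas the proteins of Grik4 and Grik5, which bind kainate with high affinity, need one of the former as a partner.

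The subunits share a codon in the channel pore, the Q/R site, at which the mRNA of Gria2, Grik1 and Grik2 is edited by adenosine deaminases. Editing of Gria2 at this site makes the AMPA receptor nearly impermeable to calcium. The genomic sequence around it is printed for each gene to show what the 9 members have in common and where they differ, with the Q/R codon in capitals. The strands are those of the mRNA, from GENCODE transcripts of release M21 on GRCm38.
Gria1: gggggccttcatgCAGcaaggatgtgacat
Gria2: gggtgcctttatgCAGcaaggatgcgatat
Gria3: gggtgcttttatgCAGcaaggatgtgatat
Gria4: gggtgcctttatgCAAcaaggatgtgacat
Grik1: tggagctctcatgCAGcaaggatcggagct
Grik2: tggagctctcatgCAGcaaggttctgagct
Grik3: gggctccctgatgCAGcaaggatctgaact
Grik4: tggaggcttcatgCAGcaaggctccactat
Grik5: gggtggcttcatgCAGcagggctcggagat
The codon was CAG in 8 genes, including Gria2, Grik1 and Grik2, and CAA in Gria4. It lay at chr3:80706911-80706913 on the minus strand in Gria2, in exon 11 of 16 of the transcript read. In Grik1 it was at chr16:87940542-87940544 in exon 12 of 17, and in Grik2 at chr10:49244329-49244331 in exon 13 of 17, both on the minus strand. Counts per gene at the transcript end hold no information on editing at this codon, which was not measured.

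Before the groups were compared, a limit of the labels and a difference between libraries had to be stated. The count column was headed WC in the 3 libraries labelled WAS and WS in the 3 labelled control. The groups follow the labels, so an exchange of the labels would invert all directions given here. Total counts were between 9248520 and 10502029 per library. Lists of region markers, fixed with earlier results of these data known, separated WAS replicates 1 and 3 from the other 4 libraries. The 9 striatal markers (Ppp1r1b, Penk, Drd1 and others) summed to 181 and 409 CPM (counts per 1000000 counts of the library, after TMM scaling) in WAS replicates 1 and 3. Their sum was 2106 CPM in WAS replicate 2 and 1063 to 1492 CPM in the control libraries. Of these markers Drd2 had a count of 0 in 5 libraries and 1 in the other. The 8 thalamic markers (Tcf7l2, Slc17a6 and others) summed to 754 and 645 CPM in WAS replicates 1 and 3, 329.9 CPM in WAS replicate 2 and 298 to 358 CPM in the controls. Both lists thus placed WAS replicate 2 with the controls or beyond them. The summed 7 cortical markers ran from 719 to 772 CPM under the WAS label and from 852 to 961 CPM under the control label. The 7 hippocampal markers summed to 76.2, 52.4 and 65.5 CPM in WAS replicates 1, 2 and 3 and to 29.1 to 47.4 CPM in the controls, but no single one of the 7 separated the groups. In WAS replicate 2 the sum came mostly from Wfs1, at 41.1 CPM, while Prox1, Fibcd1, Dsp and Lct lay within their control ranges there. Fibcd1, for example, was at 25.4, 5.77 and 20.4 CPM under the WAS label and at 4.399 to 6.67 CPM in the controls. Cabp7 and Ocm had at most 5 counts in any library. In bulk tissue, fewer cells of a type and less RNA per cell cannot be told apart, and the part of these region markers in the receptor results below was not tested.

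The AMPA subunits were the abundant family. Their summed level was 1842 ± 143 CPM (SD, n = 3) under the WAS label and 1827 ± 57.9 CPM (SD, n = 3) under the control label, and that of the kainate subunits was 127 ± 12.1 CPM (SD, n = 3) against 136 ± 9.64 CPM (SD, n = 3). Per kilobase of the longest annotated transcript, the order over the 6 libraries was Gria1, Gria2, Gria3, Grik5, Gria4, Grik1, Grik2, Grik3 and Grik4, from a mean of 103 down to 1.97 CPM per kilobase. On this scale Gria3 lay above Grik5, Grik5 above Gria4 and Gria4 above Grik1 with no overlap of their ranges. All other neighbours in the order overlapped, although Gria1 was above Gria2 in each of the 6 libraries. Because QuantSeq reads transcript ends, counts do not grow with length as in whole-transcript sequencing, and the order in CPM without division by length was Gria2, Gria1, Gria3, Grik5, Gria4, Grik2, Grik3, Grik1 and Grik4. Which of Gria1 and Gria2 stood first therefore depended on the scale, while Gria1, Gria2 and Gria3 stood above all other members on both.

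**Figure D1:**
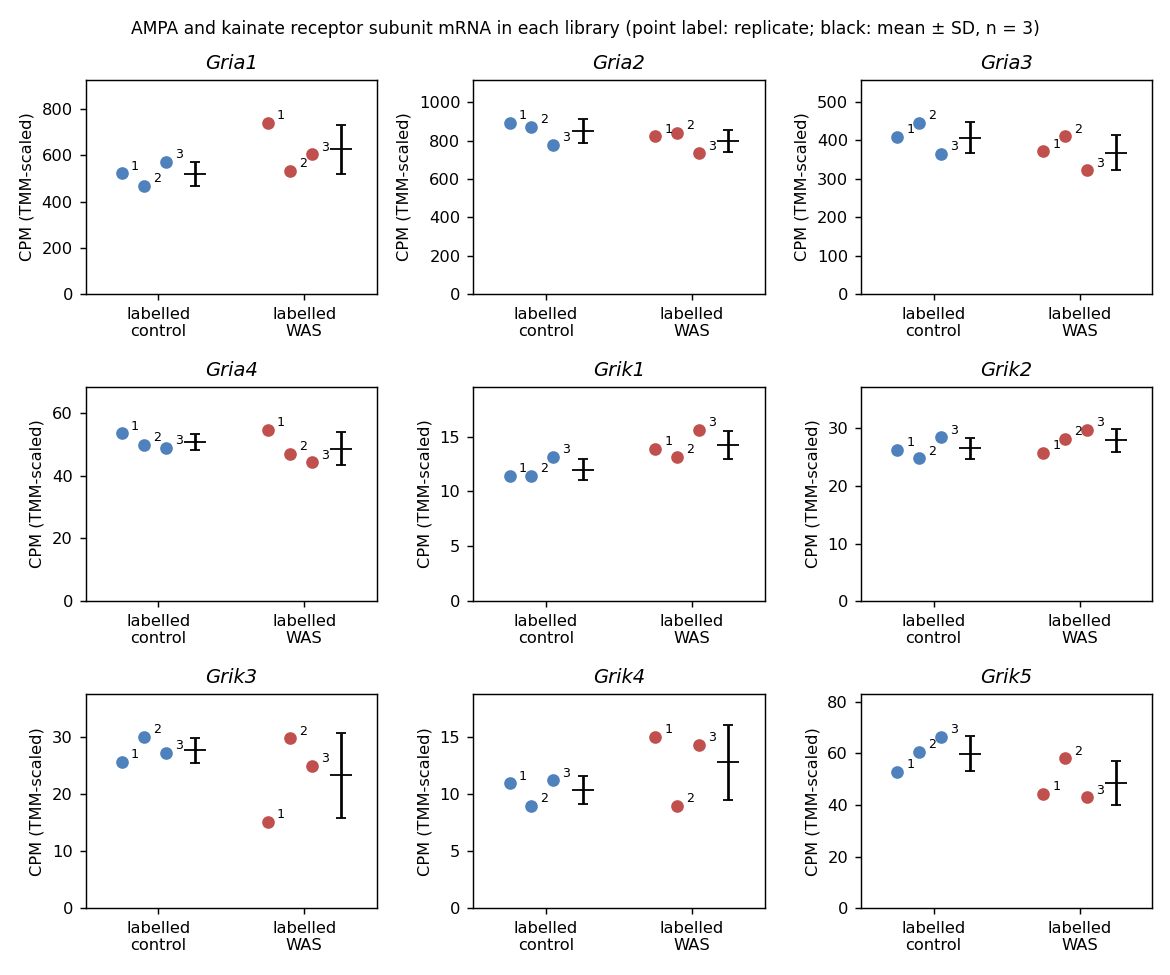
Level of each receptor subunit (TMM-scaled CPM, linear axes from 0) in the 3 libraries labelled control (blue) and the 3 labelled WAS (red), with the replicate number beside each point and the mean ± SD in black. Gria1 and Grik4 are highest in WAS replicates 1 and 3, Grik3 and Grik5 are lowest there, and WAS replicate 2 lies at or within the control range for all 4.

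Which subunits differed between stressed and control forebrain was tested across all genes with edgeR. After Benjamini-Hochberg adjustment the edgeR fit placed 0 of the 9 under 0.05, and DESeq2 and limma also called 0 of the 9. Of all genes tested, 0% passed in edgeR, 0.144% in DESeq2 and 0% in limma. At an unadjusted p under 0.05, edgeR called 2 of the 9 subunits against 7.24% of all genes tested. Gria1 was the 1 higher under the WAS label, where 3.85% of all genes were called, and Grik5 the 1 lower, where 3.4% were called. Scaled to library totals without the TMM factors, Gria1 was called and Grik5, at a log2 fold change of -0.27, was not, against 7.66% of all genes. At the same threshold DESeq2 called 2 of the 9 against 5.82% of all genes, and limma called 0 against 5.7%. None of the 9 reached a fold change of 1.5 with an unadjusted p under 0.05, which 2.49% of all genes did. The median log2 fold change of the members was -0.06, with 4 above 0 and 5 below, beside 0.00088 over all genes tested, of which 50.2% were above 0 and 49.8% below.

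Gria1 (chr11:57011387-57330244, plus strand) encodes GluA1, a subunit that is added to synapses during long-term potentiation. It was at 742, 532 and 604 CPM in WAS replicates 1, 2 and 3 and at 522, 468 and 572 CPM in the control replicates. The groups overlapped, since WAS replicates 1 and 3 lay above all controls and WAS replicate 2 within them. The log2 fold change of the libraries labelled WAS relative to those labelled control was 0.27 with a standard error of 0.12 (edgeR, adjusted p = 0.686), and its 95% interval in folds ran from 1.00 to 1.45. The spread was far above counting error, with a coefficient of variation of 17.0% among the libraries labelled WAS where counting alone gives 1.27%. Without WAS replicate 2 the log2 fold change of Gria1 was 0.37 (edgeR, adjusted p = 0.0829), and without WAS replicate 1 it was 0.12.

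Gria2 (chr3:80681450-80802835, minus strand) encodes GluA2, the subunit that sets calcium permeability. It was at 822, 842 and 734 CPM in WAS replicates 1, 2 and 3 and at 894, 873 and 777 CPM in the control replicates, with overlap of the groups. Gria2 had a log2 fold change of -0.09 with a standard error of 0.09 (edgeR, adjusted p = 0.902), and its interval of 0.826 to 1.08 in folds was the narrowest of the 9 members. With 1 library left out, the Gria2 value was between -0.14, on omitting control replicate 3, and -0.03, on omitting WAS replicate 3. Gria3 (chrX:41400854-41678601, plus strand), which encodes GluA3, a common partner of GluA2, was at 372, 411 and 323 CPM against 409, 446 and 366 CPM. Only WAS replicate 3 lay below all controls, and the log2 fold change was -0.14 with a standard error of 0.11 (edgeR, adjusted p = 0.846), with an interval in folds of 0.769 to 1.06. The Gria3 value was -0.06 on omitting WAS replicate 3, -0.07 on omitting control replicate 2 and -0.23 on omitting WAS replicate 2, where its unadjusted p was under 0.05 in edgeR.

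Gria4 (chr9:4417896-4796234, minus strand) encodes GluA4, a subunit with fast kinetics that is prominent in some interneurons. It was at 54.6, 47.0 and 44.2 CPM under the WAS label and at 53.5, 49.9 and 48.8 CPM under the control label. WAS replicate 1 lay above all controls and the other 2 below them. The log2 fold change was -0.06 with a standard error of 0.11 (edgeR, adjusted p = 0.952) and its sign changed without WAS replicate 3, with 0.0020. The markers of GABAergic interneurons summed to 831 to 1042 CPM and to 948 to 962 CPM in the same groups.

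Expressed as a share of the summed AMPA counts, a value that does not depend on library scaling, Gria1 made up 37.3%, 29.1% and 35.4% under the WAS label against 27.8%, 25.5% and 32.4% under the control label. The mean share was 33.9% ± 4.32 (SD, n = 3) against 28.6% ± 3.54 (SD, n = 3). Gria2 took 43.4% ± 2.35 (SD, n = 3) against 46.4% ± 2.01 (SD, n = 3), Gria3 took 20.0% ± 2.11 (SD, n = 3) against 22.3% ± 1.83 (SD, n = 3), and Gria4 2.63% ± 0.0952 (SD, n = 3) against 2.78% ± 0.0681 (SD, n = 3). For each of the 4 shares the groups overlapped. With 1 library left out, the difference in the Gria2 share, WAS minus control, was between -4.21 percentage points without WAS replicate 2 and -1.89 without WAS replicate 1. That in the Gria3 share was between -3.48 without WAS replicate 2 and -1.25 without control replicate 2.

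**Figure D2:**
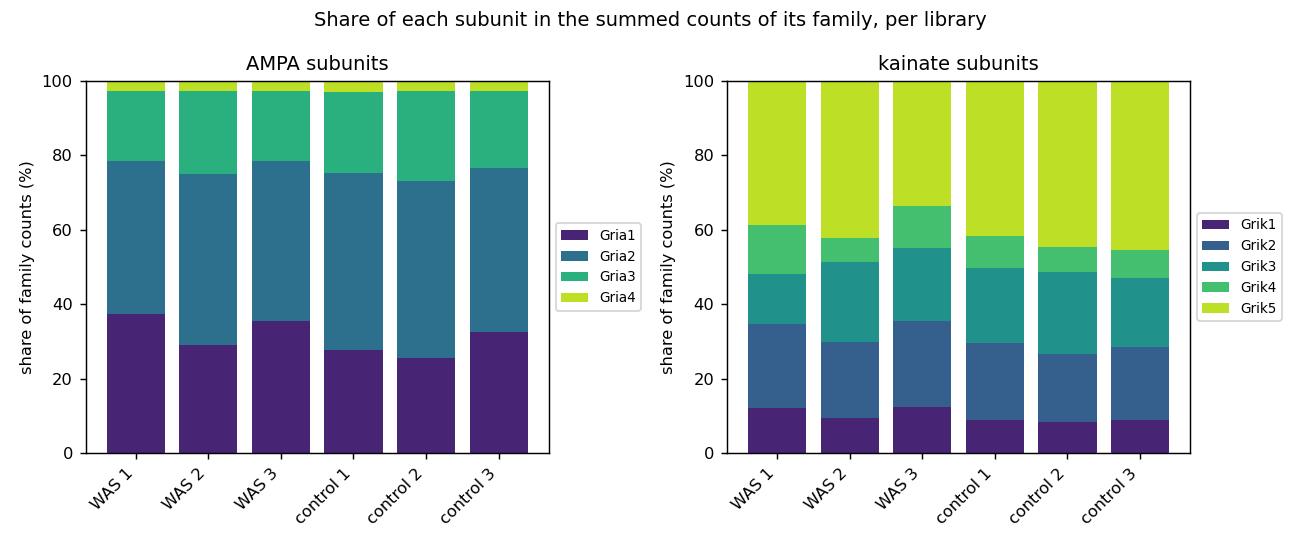
Share (%, stacked to 100) of each subunit in the summed counts of the AMPA family (left) and of the kainate family (right) in each library. Gria1 takes 29.1% to 37.3% in the libraries labelled WAS and 25.5% to 32.4% in those labelled control, and Grik1 9.51% to 12.2% and 8.42% to 8.99%.

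Grik1 (chr16:87895900-88290265, minus strand) encodes GluK1, a kainate subunit found in interneurons and sensory pathways. It was at 13.9, 13.1 and 15.6 CPM in WAS replicates 1, 2 and 3 and at 11.4, 11.4 and 13.1 CPM in the control replicates, from 117 to 158 counts per library. It was the 1 member whose groups did not overlap, where 11.7% of all genes tested showed none, and the lowest WAS and the highest control library, with 123 and 128 counts, differed by less than counting error. The log2 fold change of Grik1 was 0.25 with a standard error of 0.16 (edgeR, adjusted p = 0.801), with an interval in folds of 0.935 to 1.51. Its coefficient of variation, 8.90% under the WAS label and 8.24% under the control label, was close to the 8.42% and 9.07% that counting alone gives.

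Grik2 (chr10:49094833-49788766, minus strand) encodes GluK2, the kainate subunit of many principal neurons. Its levels of 25.8, 28.2 and 29.8 CPM against 26.3, 24.8 and 28.4 CPM overlapped, and the log2 fold change was 0.07 with a standard error of 0.12 (edgeR, adjusted p = 0.950). The interval in folds was 0.879 to 1.26. With 1 library left out, the Grik2 value was between 0.02, on omitting WAS replicate 3, and 0.13, on omitting control replicate 3.

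Grik3 (chr4:125490700-125714173, plus strand) encodes GluK3, a subunit with low sensitivity to glutamate. It varied more than any other member, from 15.1 CPM in WAS replicate 1 to 29.7 and 24.9 CPM in WAS replicates 2 and 3, beside 25.6, 29.9 and 27.2 CPM in the controls. WAS replicate 1 was low, WAS replicate 3 lay just under the controls and WAS replicate 2 within them. Among the libraries labelled WAS the coefficient of variation was 32.1%, against 6.62% from counting alone. The log2 fold change was -0.25 with a standard error of 0.20 (edgeR, adjusted p = 0.869), but -0.02 without WAS replicate 1 and -0.46 without WAS replicate 2 (edgeR, adjusted p = 0.267).

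Of the subunits that need a partner, Grik4 (chr9:42518135-42944493, minus strand) encodes GluK4, known from hippocampal CA3 and dentate gyrus. It was at 14.99, 8.98 and 14.3 CPM in WAS replicates 1, 2 and 3 and at 10.9, 8.99 and 11.2 CPM in the control replicates. WAS replicates 1 and 3 were above all controls and WAS replicate 2 was level with the lowest control. The log2 fold change of Grik4 was 0.30 with a standard error of 0.21 (edgeR, adjusted p = 0.834), and its interval in folds of 0.891 to 1.71 was the widest of the 9 on the log2 scale. With 1 library left out, the log2 fold change of Grik4 ran from 0.17 without WAS replicate 1 to 0.50 without WAS replicate 2 (edgeR, adjusted p = 0.234).

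Grik5 (chr7:25009849-25072346, minus strand) encodes GluK5, the widespread partner of GluK2. It was at 44.3, 58.1 and 43.0 CPM in WAS replicates 1, 2 and 3 and at 52.8, 60.6 and 66.3 CPM in the control replicates. WAS replicates 1 and 3 were below all controls and WAS replicate 2 within them. The log2 fold change was -0.31 with a standard error of 0.13 (edgeR, adjusted p = 0.679), with an interval in folds of 0.660 to 0.991. Without WAS replicate 2 it was -0.46 (edgeR, adjusted p = 0.0561), the smallest adjusted p of any member under any setting. On omitting control replicate 3 the Grik5 value was -0.23, and its unadjusted p was above 0.05.

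In the kainate family, Grik5 was the largest share, with 38.2% ± 4.22 (SD, n = 3) of the summed counts in the libraries labelled WAS and 43.8% ± 2.00 (SD, n = 3) in those labelled control. Grik1 took 11.3% ± 1.56 (SD, n = 3) against 8.80% ± 0.325 (SD, n = 3), and its shares did not overlap between the groups. The nearest were 9.51% in WAS replicate 2 and 8.99% in control replicate 1, from 123 and 120 counts of Grik1. They differed by less than counting error, and no rate over all genes exists for such shares. The shares of Grik2, Grik3 and Grik4 overlapped, with 22.1% against 19.5%, 18.1% against 20.3% and 10.3% against 7.63% as group means. Leaving out WAS replicate 1 turned the difference in the Grik3 share from -2.18 to 0.25 percentage points, WAS minus control, while it came to -3.88 on omitting WAS replicate 2 and to -1.29 on omitting control replicate 2. The difference in the Grik4 share was 1.24 percentage points without WAS replicate 1 and 4.56 without WAS replicate 2. That in the Grik5 share was -3.40 percentage points without WAS replicate 3 and -7.58 without WAS replicate 2.

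**Figure D3:**
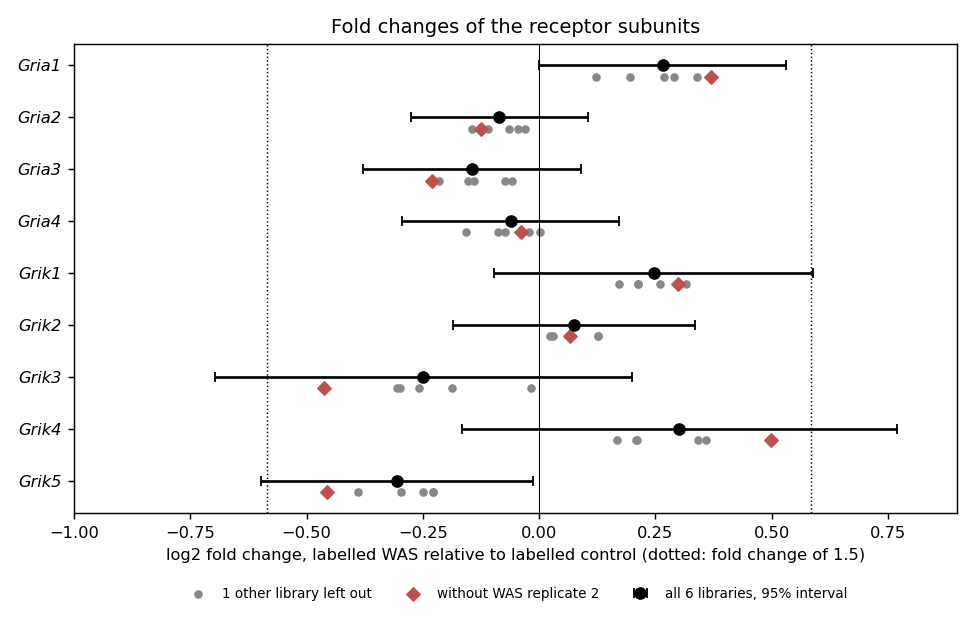
Log2 fold change of each subunit in the libraries labelled WAS relative to those labelled control (black, with the 95% interval from edgeR), with the estimates after leaving out 1 library below it (grey, and red for WAS replicate 2). Dotted lines mark a fold change of 1.5, and the intervals of Gria1 to Gria4 and Grik2 lie between them.

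The 95% interval lay within a fold change of 1.5 in either direction for 5 of the 9 members, Gria1, Gria2, Gria3, Gria4 and Grik2, and for 55.4% of all genes tested. For Grik1, Grik3, Grik4 and Grik5 the interval reached past it in 1 direction.

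Gria1, Grik3 and Grik5 shared a pattern over the libraries, in which WAS replicates 1 and 3 lay on the same side of all 3 controls and WAS replicate 2 among them. Of all genes tested, 11.6% had this pattern. Grik4 missed it narrowly, since WAS replicate 2, at 8.98 CPM, was just below the lowest control at 8.99 CPM. The same 2 libraries were those with the low striatal and high thalamic marker sums. With WAS replicate 2 left out, 5 of 9 members had an unadjusted p under 0.05 by edgeR, Gria1 and Grik4 higher and Gria3, Grik3 and Grik5 lower under the WAS label, against 13.7% of all genes in that fit. None of the 9 passed an adjusted p of 0.05 there, against 3.22% of all genes.

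**Figure D4:**
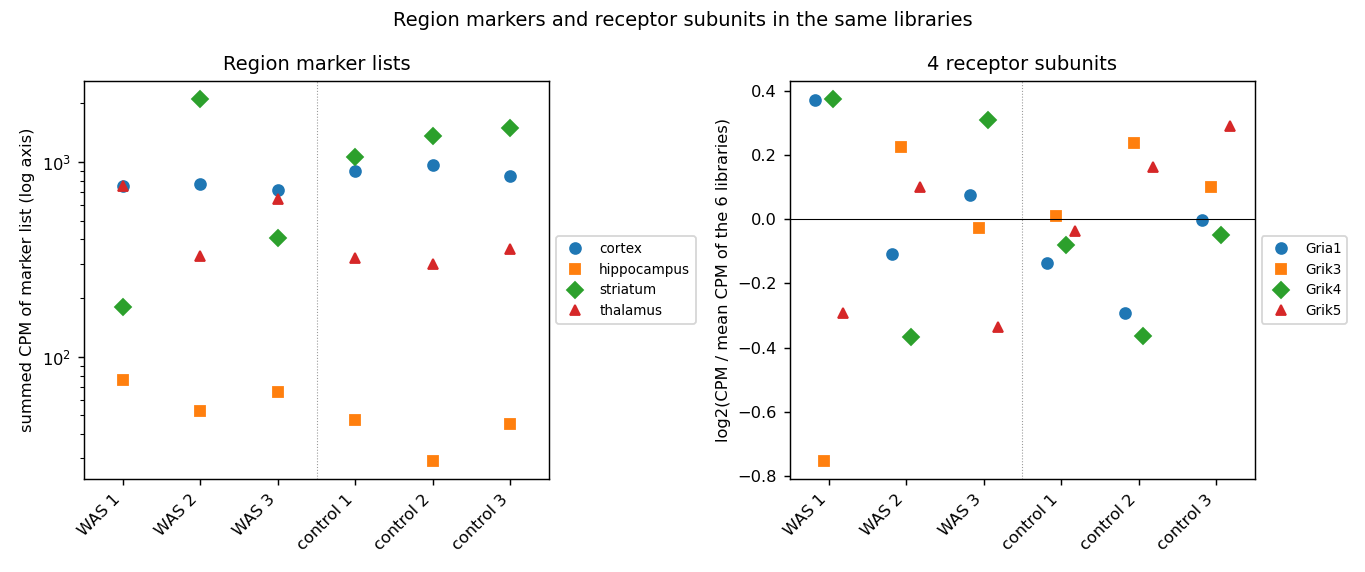
Left, summed CPM (log axis) of the marker lists of cortex, hippocampus, striatum and thalamus in each library. Right, log2 of the CPM of Gria1, Grik3, Grik4 and Grik5 relative to their own mean over the 6 libraries. WAS replicates 1 and 3, at 181 and 409 CPM of striatal and 754 and 645 CPM of thalamic markers, are also the libraries with high Gria1 and Grik4 and low Grik5.

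The genes most like the 2 most variable members were named by the root mean square difference of centred log2 CPM over the 6 libraries, among 15238 genes. For Grik3 these were Ndfip2, Ensa and Usp19, with differences of 0.02, 0.04 and 0.06, and for Grik4 Sema5a, F730043M19Rik and Clmn, with 0.04, 0.05 and 0.05. The level of Ndfip2, at 196, 374 and 317 CPM under the WAS label against 316, 386 and 350.02 CPM under the control label, followed that of Grik3 closely. Over 6 libraries and so many genes, close likeness can be found for many patterns, and it carries no test.

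Other genes of the pathway were taken from 4 lists of 43 genes in all, of which 39 were tested. At an unadjusted p under 0.05, 8 of the 39 were called by edgeR, 3 higher and 5 lower under the WAS label, beside the 7.24% of all genes. None had an adjusted p under 0.05, and the median log2 fold change was -0.05. The groups did not overlap for 5 of the 39, beside 11.7% of all genes tested. Without WAS replicate 2, 6 of the 39 had an adjusted p under 0.05, beside 3.22% of all genes. These were C1ql2 and Shisa6, which were higher, and Cacng3, Gsg1l, Neto2 and Dlg1, which were lower. For each of these 6 genes the adjusted p from edgeR was lowest in that fit and highest, at 0.9997, without control replicate 2.

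Of 22 genes listed as AMPA auxiliary proteins, 19 were tested, with 7 log2 fold changes above 0, 12 below and a median of -0.10. Some of these proteins escort the receptor to the membrane or slow its closing. Olfm1, a secreted protein that binds AMPA receptors, was the most abundant at 1149.5 ± 49.6 CPM (SD, n = 3) under the WAS label against 1277 ± 79.3 CPM (SD, n = 3) under the control label. Frrs1l, which helps assemble AMPA receptors in the endoplasmic reticulum, was at 674, 620 and 544 CPM against 716, 796 and 664 CPM (edgeR log2 fold change -0.24 with a standard error of 0.10, adjusted p = 0.647).

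Cacng2, which encodes stargazin, the founding auxiliary subunit, was at 401, 469 and 437 CPM under the WAS label against 473, 538 and 488 CPM under the control label. The groups did not overlap, and the log2 fold change was -0.20 with a standard error of 0.09 (edgeR, adjusted p = 0.684). Its relative Cacng3 did not overlap either, with 76.8, 96.1 and 79.3 CPM against 106.9, 106.9 and 96.6 CPM, and had a log2 fold change of -0.30 with a standard error of 0.10 (edgeR, adjusted p = 0.585). For both genes the highest WAS and the lowest control library differed by less than counting error. They were at 469 and 473 CPM for Cacng2 and at 96.1 and 96.6 CPM for Cacng3. Without WAS replicate 2 the log2 fold change of Cacng3 was -0.41 (edgeR, adjusted p = 0.0324). Gsg1l, an auxiliary subunit that dampens AMPA currents, was named after its values were seen, with 42.5, 79.9 and 49.6 CPM against 65.7, 79.1 and 73.4 CPM. Here WAS replicate 2 was the highest of all libraries and the other 2 the lowest.

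Shisa6, which holds AMPA receptors at the synapse, was at 14.1, 5.77 and 23.6 CPM in WAS replicates 1, 2 and 3 and at 7.33, 5.18 and 7.70 CPM in the control replicates. For Shisa6 the log2 fold change was 1.11 with a standard error of 0.40 (edgeR, adjusted p = 0.588). WAS replicates 1 and 3 lay above all controls and WAS replicate 2 within them. The Shisa6 value ran from 0.57 without WAS replicate 3 to 1.48 without WAS replicate 2. Of the 4 genes of kainate auxiliary proteins and ligands, all tested, Neto1 and Neto2 encode auxiliary subunits that bind kainate receptors and C1ql2 and C1ql3 encode secreted proteins that place them at mossy fibre synapses. Neto2 was at 36.7, 63.4 and 46.6 CPM against 54.9, 74.2 and 64.5 CPM (edgeR log2 fold change -0.40 with a standard error of 0.18, adjusted p = 0.681), whereas for Neto1 it was -0.11 with a standard error of 0.14. With 1 library left out, the Neto2 value was between -0.63, on omitting WAS replicate 2, and -0.24, on omitting WAS replicate 1. The same omissions gave -0.27 and 0.0019 for Neto1, a change of sign.

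C1ql2, a gene of dentate granule cells, was at 66.2, 4.81 and 40.7 CPM in WAS replicates 1, 2 and 3 and at 17.6, 3.52 and 7.29 CPM in the control replicates. For C1ql2 the log2 fold change was 1.97 with a standard error of 0.71 (edgeR, adjusted p = 0.595). Over the alternatives the C1ql2 value was lowest at 1.26, on leaving out WAS replicate 1, and highest at 2.79, on leaving out control replicate 1. It was 2.49 without WAS replicate 2 (edgeR, adjusted p = 0.00202), and the adjusted p from edgeR reached 0.9997 without control replicate 2. Only WAS replicates 1 and 3 were high, and WAS replicate 2 was lower than 2 of the 3 controls. The 2 libraries highest in C1ql2 were also highest in the hippocampal marker sum.

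Of 14 genes of AMPA trafficking and anchoring, 13 were tested, with 5 log2 fold changes above 0, 8 below and a median of -0.03. Dlg1, which encodes SAP97, a scaffold that binds GluA1, was at 92.4, 124 and 101 CPM against 130.3, 127 and 132 CPM without overlap (edgeR log2 fold change -0.29 with a standard error of 0.11, adjusted p = 0.616). Its highest WAS and lowest control library, at 124 and 127 CPM, differed by less than counting error. The most abundant genes of this list, Nsf, an ATPase that binds GluA2, and Nsg2, an endosomal protein, were at 635 ± 76.5 CPM (SD, n = 3) against 612 ± 32.3 CPM (SD, n = 3) and at 545 ± 14.2 CPM (SD, n = 3) against 516 ± 27.8 CPM (SD, n = 3). Neither had an unadjusted p under 0.05.

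The 3 genes listed under RNA editing had log2 fold changes above 0, with a median of 0.13, beside 50.2% of all genes tested above 0. That of Adar was -0.03 on omitting control replicate 3. Adarb1, which edits the Q/R codon of Gria2 printed above, was at 90.3, 79.2 and 87.9 CPM in WAS replicates 1, 2 and 3 and at 81.7, 79.1 and 74.2 CPM in the control replicates (edgeR log2 fold change 0.13 with a standard error of 0.09, adjusted p = 0.822). Adar was at 83.0 ± 5.80 CPM (SD, n = 3) against 81.7 ± 5.57 CPM (SD, n = 3). Adarb2, a relative without known editing activity, was at 7.84, 6.09 and 6.03 CPM against 4.57, 4.399 and 4.52 CPM without overlap, a log2 fold change of 0.57 with a standard error of 0.23 (edgeR, adjusted p = 0.643). It was the scarcest of the 3 genes.

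**Figure D5:**
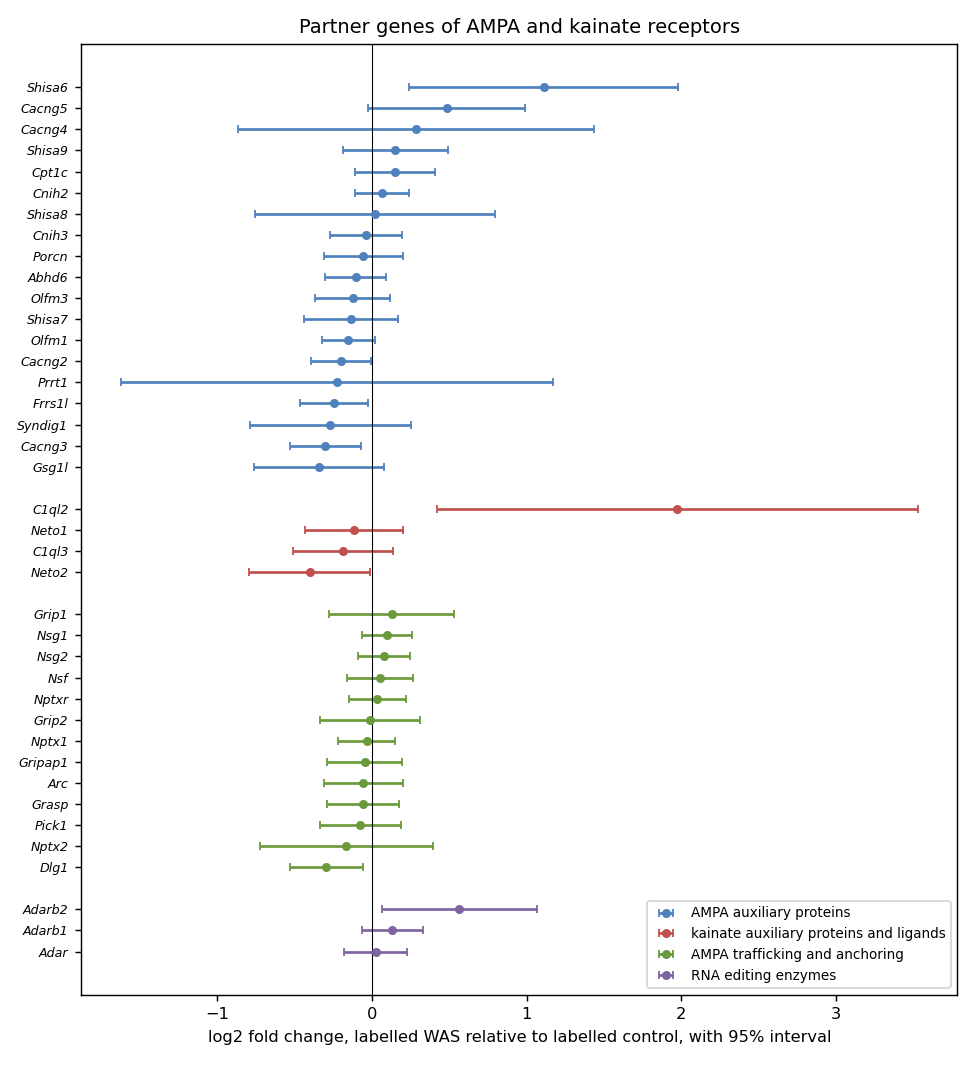
Log2 fold change with the 95% interval from edgeR for the 39 partner genes tested, grouped by list, in the libraries labelled WAS relative to those labelled control. Most intervals include 0, and the widest among the 8 genes with an unadjusted p under 0.05 is that of C1ql2, at 1.97.

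Beside the AMPA and kainate subunits, 8 of 9 NMDA and delta receptor genes were tested, with a median log2 fold change of -0.04 and 1 gene, Grin3a, under an unadjusted p of 0.05, beside the 7.24% of all genes. Grin3a, which encodes an NMDA subunit that lowers calcium permeability, was at 47.1, 34.1 and 45.9 CPM against 30.0, 28.7 and 33.6 CPM. Grin3a had an edgeR log2 fold change of 0.46 with a standard error of 0.14 (edgeR, adjusted p = 0.539). It had an unadjusted p under 0.05 in all 13 alternatives. Without WAS replicate 2 the Grin3a value was 0.60 (edgeR, adjusted p = 0.0139, beside 3.22% of all genes under 0.05), and its adjusted p from edgeR reached 0.9997 without control replicate 2. WAS replicates 1 and 3 were high here as for Gria1 and Grik4. Unlike in those 2 genes, WAS replicate 2, at 34.1 CPM, also lay above all controls, so that the groups did not overlap. The highest control, at 33.6 CPM, differed from it by less than counting error, and 11.7% of all genes tested showed no overlap. The difference between the receptor families was not tested.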

How the data were processed

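Forebrain RNA of 3 mice per group was sequenced as QuantSeq libraries with single-end reads of 75 bp. The deposited values are read counts per gene symbol. The authors aligned the reads by Bowtie2, and took counts per gene over unique and multiple alignments from Bedtools. The submitters' processing notes name the build mm10, and tool versions and annotation are not given in the sources used here. TMM factors scaled the counts, and quasi-likelihood fits were made in edgeR 4.0.16 (R 4.3.3), with Benjamini-Hochberg adjustment over the 15239 genes whose mean of log2(quantile-normalized count + 1) over the 6 libraries was at least 2. The study's methods name quantile normalization within edgeR. Each standard error is the size of the log2 fold change over the root of its F statistic, and intervals use the moderated degrees of freedom. The functions were tested on simulated data. Alternatives were DESeq2 1.42.0, limma 3.58.1 on quantile-normalized log2 counts, scaling by library totals or upper quartiles, 2 other filters, a block on replicate number, and fits without each library in turn. The same 6 libraries were used throughout, and p-values measure the spread between mice. For a single value in 3 against 3 mice, 0.1 is the smallest two-sided p of an exact permutation test.

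The genes named are all 9 members, the 2 most abundant genes and those with an unadjusted p under 0.05 of each partner list, and 3 genes most like each of the 2 most variable members, with region markers where their level stands beside a result. Outside this rule, Gsg1l and Grin3a were named after their values were seen and C1ql3 for its role alone. The members and lists were chosen with earlier results of these data known. Gene positions and sequences come from GENCODE M21 on GRCm38, the assembly that mm10 names, and all 9 symbols matched. The last 500 bases of the longest transcript of each member shared no stretch of 50 bases with a transcript of another gene, and no other annotated gene overlapped them. Replicate libraries differed by more than sampling noise in all pairs, so none was counted as a duplicate. Counts carry no molecular identifiers, and counting error covers sampling of reads only.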

Additional observations from a re-analysis of the deposited data

How the results depend on the processing

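The count of members with an adjusted p under 0.05, and of those past a fold change of 1.5 with an unadjusted p under 0.05, was 0 in all 13 alternatives. Of all genes, 22 passed the adjusted threshold with DESeq2, 49 with the replicate block, 491 without WAS replicate 2 and 0 in the other 10. The 2 members with an unadjusted p under 0.05 became 1 with library totals (Gria1), 1 with the filter of edgeR (Grik5) and 0 with limma, and ran from 0 to 5 with each library left out. It was 0 on leaving out any 1 of WAS replicate 1, WAS replicate 3 and control replicate 2, it was 1 without control replicate 1 (Grik5) or control replicate 3 (Gria1), and 5 without WAS replicate 2. The 8 partner genes became 5 with DESeq2 and 1 with limma, and ran from 1 without control replicate 2 to 12 without WAS replicate 2. Of 117 single-member estimates under alternatives, 116 kept the direction and the side of the adjusted threshold, and the log2 fold change of Gria4 ran from -0.16 without WAS replicate 1 to 0.0020, a change of sign, without WAS replicate 3. The adjusted p of Gria1 and Grik5 was lowest at 0.0829 and 0.0561 on leaving out WAS replicate 2, and highest at 0.9997 for both on leaving out control replicate 2. With the replicate number as a block, 2 members and 10 partner genes had an unadjusted p under 0.05, and 1428 in place of 1104 of all genes. Deviations of libraries with the same number correlated at 0.0662, 0.0846 and 0.0873 across genes, so that the numbers were not taken to pair the mice, although each library correlated best with its own number. Library totals moved the median of all genes to 0.04. The partner count was 5, 3, 4 and 5 without WAS replicate 1, WAS replicate 3, control replicate 1 and control replicate 3. Under the WAS label the spread between libraries was above counting error for all 9 members, and close to it for Grik1 and Grik2, the members with few counts and little spread. With 3 mice per group, 4 members had intervals that reached past a fold change of 1.5.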
